A study of Vanessa cardui and Junonia coenia with 16 samples.

Results

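Hindwings and forewings of the wild-type common buckeye butterfly, Junonia coenia, were compared by RNA-seq late in pupal development, at the stage the labels name for melanin. The comparison used 4 of the 16 libraries of the series, 2 of hindwings and 2 of forewings, numbered 1 and 2 within each wing and chosen by their labels alone. All were wild type ("wide type" in the labels), from larvae of a laboratory colony reared on artificial diet with dried Plantago lanceolata leaves at 27 °C under 16 h of light and 8 h of dark. The labels call the 2 libraries of a wing biological replicates. They do not say whether hindwing 1 and forewing 1 came from 1 animal, how many animals went into a library, or the sex of the animals. Where values of mutant wings are given for comparison, they come from 4 further J. coenia libraries of the same stage, 2 of forewings labelled as optix knockouts with large defects and 2 of hindwings labelled as optix knockouts. The part of each mutant wing made of knockout cells was not measured.

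In butterflies the forewing and hindwing are serial copies of one appendage, and the Hox gene Ultrabithorax, active in the hindwing, is the classic switch that makes it differ from the forewing in shape, scales and colour pattern. Late in pupal life the scale cells build their cuticle and fill with pigment, ommochromes first and melanins later in the species in which this order has been described.

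The values were FPKM, fragment counts scaled to transcript length and to the library total, for rows of a transcriptome assembly. Rows sharing a DN and a c number of the assembly were summed and are called clusters here. Of 124280 clusters, 32604 were above 0 in at least 1 of the 4 libraries and 16991 had a mean of at least 1 FPKM and were tested. The mean of the cluster just inside this limit was 1.00025 FPKM and that of the cluster just outside was 0.99975 FPKM. Of the tested clusters, 6365 (37.5%) consist of 1 row, and the largest has 21. The files pair no cluster with a gene name, and 0 identifiers matched the reference table of 15000 genes, which is of another butterfly, Vanessa cardui. Clusters are therefore named by identifier only, no function is given for any, and neither Ultrabithorax nor any marker of the wing tissue was looked up.

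The libraries sorted by number before they sorted by wing. On log2(FPKM + 1) over the 16991 clusters, Pearson's r was 0.86 between forewing 1 and hindwing 1 and 0.88 between forewing 2 and hindwing 2. The 2 forewings correlated at 0.65 and the 2 hindwings at 0.66. The libraries numbered 2 stood apart from the mutant libraries as well, at 0.68 to 0.78, against 0.79 to 0.84 for the libraries numbered 1. Depth, estimated from low values relative to forewing 2, was 1.38 in forewing 1, 1.27 in hindwing 1 and 1.58 in hindwing 2. The 10 most abundant clusters held 41.0% and 40.7% of all FPKM in forewing 1 and hindwing 1, and 49.98% and 48.0% in forewing 2 and hindwing 2. Because of this, differences are given within each library number (hindwing 1 minus forewing 1, hindwing 2 minus forewing 2) beside the difference of the groups.

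In the main fit of the 4 libraries, no cluster was called different between wild-type hindwings and forewings. Of 16991 clusters 0 (0%) were called by limma at an adjusted p of 0.05, and the smallest adjusted p was 1. At an unadjusted p under 0.05 there were 197 clusters, 120 higher and 77 lower in the hindwing, where 850 would be expected with no effect. That fit leaves out the library number, and with the number as a fixed block there were 963 (and 0 called, limma). With the genotype and number of a library as a block with an estimated correlation of 0.676, in a fit of all 8 J. coenia libraries, 8 clusters passed, 4 in each direction. That fit gave 1453 clusters with an unadjusted p under 0.05 (limma). The median cluster differed by 0.01 (log2, hindwing minus forewing), and the group difference was under 2-fold for 81.5% of clusters. A call of 0 with 2 libraries a wing does not show that the wings were alike.

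The difference between the wings of number 1 said little about that between the wings of number 2. Over all tested clusters the 2 differences correlated at r = 0.02. By contrast, the difference between numbers 2 and 1 in the forewing correlated at 0.63 with that in the hindwing. These are descriptions across clusters, which share libraries, assembly and depth and are not independent replicates. A cluster listed at 0 in both wings of a number enters with a wing difference of 0 there. This holds for 895 clusters above 0 in number 1 alone (both wings) and 457 in number 2 alone. It also holds for clusters above 0 in 1 library only. These were 508 for hindwing 1, 460 for forewing 1, 269 for forewing 2 and 237 for hindwing 2. The effect of this on the correlations, here and by abundance, was not tested. The SD of the wing difference was 1.12 (log2) in number 1 and 1.01 in number 2. The median absolute difference was 0.33 (log2) between wings and 0.96 between numbers.

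**Figure D1:**
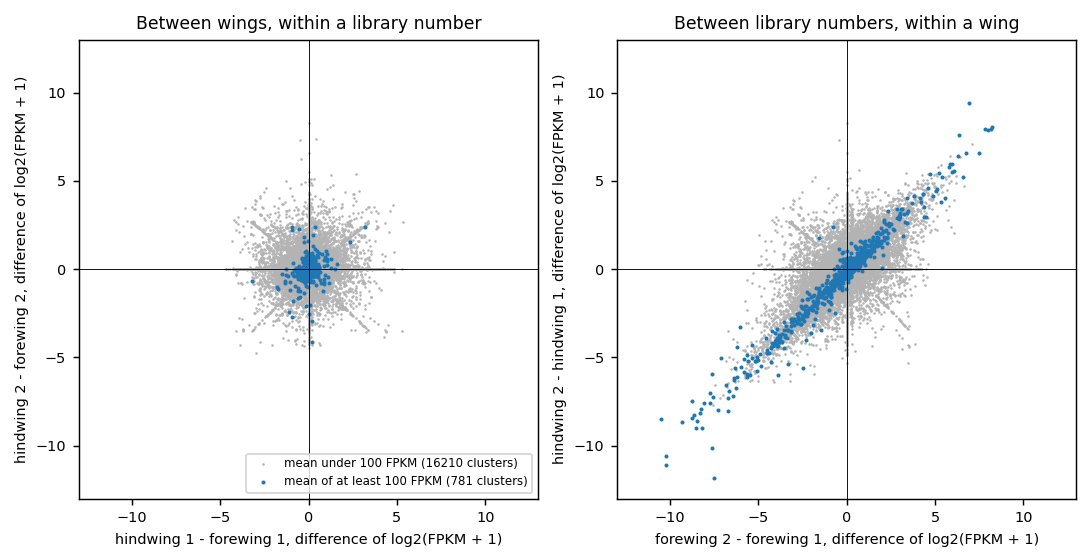
Each point is 1 of 16991 clusters, and axes are differences of log2(FPKM + 1): on the left hindwing minus forewing in library number 1 (x) and number 2 (y), on the right number 2 minus number 1 in the forewing (x) and the hindwing (y). Blue marks the 781 clusters with a mean of at least 100 FPKM. The left cloud has no clear diagonal (r = 0.02), and clusters listed at 0 in both wings of a number lie on an axis. The right cloud is stretched along the diagonal (r = 0.63).

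The agreement between the pairs of wings was greater among abundant clusters. The correlation of the 2 wing differences was 0.00 for clusters of 1 to 5 FPKM, 0.06 for 5 to 20 FPKM, 0.08 for 20 to 100 FPKM and 0.27 for the 781 clusters of at least 100 FPKM. The sum of squares of the 4 values of each cluster around their mean divides into a part for the wing, a part for the number and a remainder. The wing took 16.2% of it over all clusters, the number 68.3% and the remainder 15.5%. In the lowest class the wing took 23.9% and the remainder 23.8%. In the class of at least 100 FPKM the wing took 1.77% and the remainder 1.06%, and the number 97.2%. Each of the 3 parts rests on 1 degree of freedom per cluster.

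**Figure D2:**
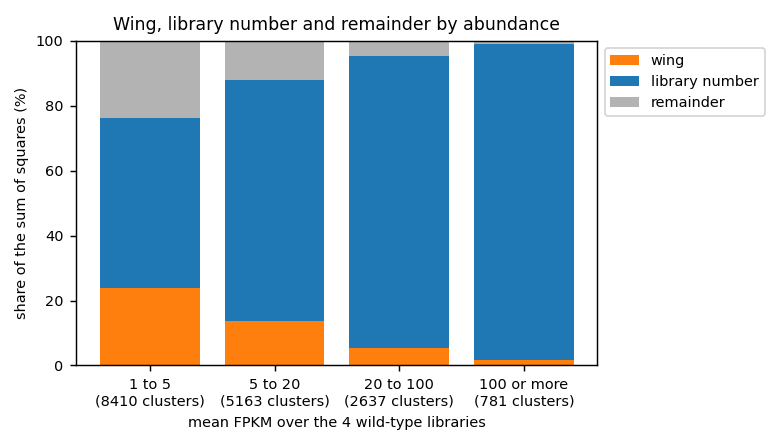
Stacked bars give the share (%) of the sum of squares of log2(FPKM + 1) that goes with wing, with library number and with neither, for 4 classes of mean FPKM. The number share is 52.3% in the lowest class and 97.2% in the highest, and the wing share runs from 23.9% down to 1.77%, beside remainders of 23.8% and 1.06%.

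Presence and absence followed the library number too. Of the tested clusters, 11995 (70.6%) were above 0 in all 4 wild-type libraries. Clusters above 0 in both libraries numbered 1 and listed at 0 in both numbered 2 were 895, and 457 showed the reverse. Clusters above 0 in both hindwings and listed at 0 in both forewings were 172, and 97 were above 0 in both forewings alone. The crossed pairs, which share neither wing nor number, gave 170 clusters for forewing 1 with hindwing 2 and 91 for forewing 2 with hindwing 1. The counts that follow the wing were thus about as large as those of the crossed pairs. None of the 172 clusters seen in hindwings alone exceeded a mean of 11.5 FPKM over the 4 libraries, and none of the 97 seen in forewings alone exceeded 8.21 FPKM. A value of 0 FPKM may be a failed estimate and does not show that a transcript was absent.

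**Figure D3:**
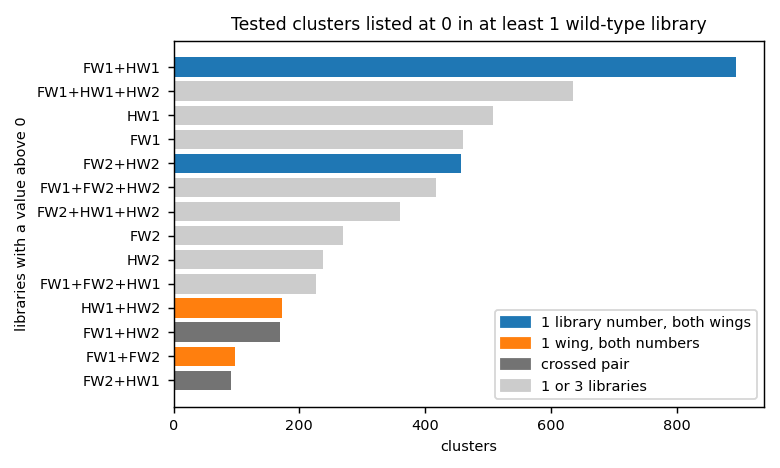
Bars count the tested clusters with each pattern of libraries above 0, other than the 11995 above 0 in all 4. FW and HW stand for forewing and hindwing with the library number. Both patterns of 1 number (blue, 895 and 457) exceed both patterns of 1 wing (orange, 172 and 97), which are close to the crossed pairs (dark grey, 170 and 91).

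By size of difference, 334 clusters (1.97%) were at least 2-fold higher and 256 (1.51%) at least 2-fold lower in the hindwing within both numbers, on the log2(FPKM + 1) scale. Another 542 (3.19%) were at least 2-fold apart within both numbers but in opposite directions. Within number 1 alone 1939 were at least 2-fold higher and 1997 lower, and within number 2 alone 1915 and 1507. Of the 334 that were higher, 233 had a mean under 5 FPKM and 153 were listed at 0 in both forewings. Of the 256 that were lower, 167 had a mean under 5 FPKM and 84 were listed at 0 in both hindwings. The groups did not overlap for 1377 clusters with the hindwing higher (8.1%) and 1309 with it lower (7.7%).

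Fewer abundant clusters were this far apart. Of 3418 clusters of at least 20 FPKM, 28 (0.819%) were at least 2-fold apart in the same direction within both numbers, 10 higher and 18 lower in the hindwing, and 16 were apart in opposite directions. Of the 781 clusters of at least 100 FPKM, 5 were 2-fold apart in the same direction, 2 higher and 3 lower, and 0 in opposite directions. The same sign within both numbers was seen for 424 of the 781 (54.3%), against 43.3% of all tested clusters, where pairs listed at 0 count as neither sign. The groups did not overlap for 84 of the 781 (10.8%), 18 with the hindwing higher and 66 with it lower, against 15.8% of all tested clusters.

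These 5 abundant clusters were singled out after their values were seen, and none was called. TRINITY_DN25778_c0, the 9th most abundant cluster, read 13682 FPKM in forewing 1 and 24870 FPKM in forewing 2, against 6653 FPKM in hindwing 1 and 10899 FPKM in hindwing 2. Both hindwings lay below both forewings, with differences of -1.04 and -1.19 (log2) within the numbers (group difference -1.12, SE 0.45, limma unadjusted p = 0.0597, adjusted p = 1). Knockout forewings had 18450 and 17388 FPKM and knockout hindwings 11165 and 7928 FPKM, so the hindwing was the lower wing in all 4 pairs.

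TRINITY_DN41350_c3 had the opposite pattern at a lower level. Forewings 1 and 2 had 363 and 755 FPKM and hindwings 1 and 2 had 1829 and 2176 FPKM, a ratio of hindwing to forewing of 5.04 in number 1 and 2.88 in number 2. The group difference was 1.93 (log2, SE 0.47, limma unadjusted p = 0.0111, adjusted p = 1). In the knockout wings its level was lower throughout, with 91.4 and 73.9 FPKM for forewings and 408 and 192 FPKM for hindwings, and the hindwing again exceeded the forewing within both numbers, by 2.15 and 1.37 (log2).

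TRINITY_DN34290_c0 had 15.6 and 46.6 FPKM in its forewing libraries against 153 and 246 FPKM in its hindwing libraries (group difference 2.80, SE 0.68, limma unadjusted p = 0.0104, adjusted p = 1). The ratio was 9.85 in number 1 and 5.28 in number 2, and the groups did not overlap. The knockouts numbered 2 were listed at 0 in both wings, and those numbered 1 had 7.74 FPKM (forewing) and 27.2 FPKM (hindwing).

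TRINITY_DN32573_c0 was the more abundant in forewings, with 2453 and 2150 FPKM against 746 and 997 FPKM (group difference -1.41, SE 0.34, limma unadjusted p = 0.0105, adjusted p = 1). It is the one of the 5 whose forewing libraries were closest to each other, 0.19 (log2) apart. Its knockout values were far lower, 20.9 and 11.6 FPKM for forewings and 14.9 and 5.03 FPKM for hindwings. The hindwing was the lower wing in every wild-type and knockout pair. TRINITY_DN37411_c1 had 1510 and 737 FPKM in forewings 1 and 2 against 701 and 139 FPKM in hindwings 1 and 2. Its lower forewing lay just above its higher hindwing, and the group difference of -1.75 had an SE of 0.90 (limma unadjusted p = 0.112, adjusted p = 1) and ran from -0.59 without hindwing 2 to -2.92 without hindwing 1. In the knockouts this cluster was higher in both wings, with 4530 and 2470 FPKM for forewings and 5746 and 3076 FPKM for hindwings.

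**Figure D4:**
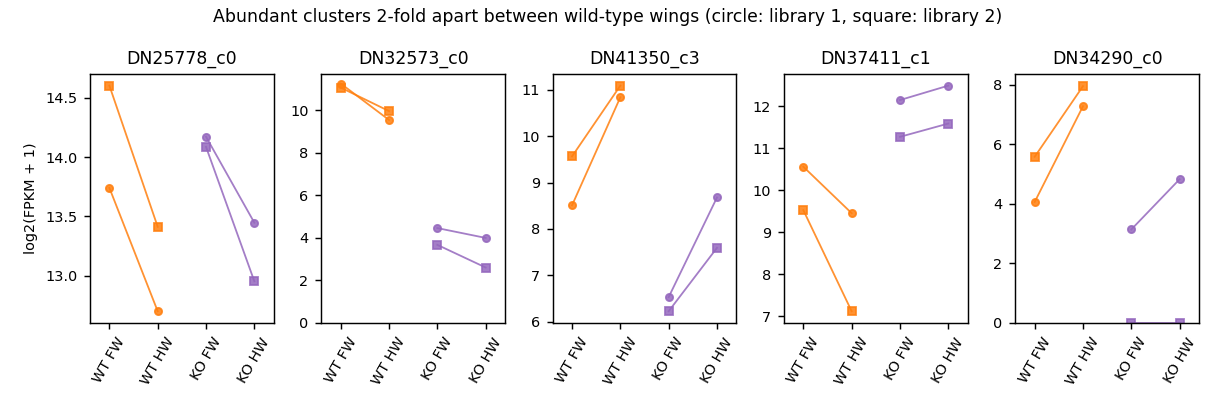
Points are log2(FPKM + 1) in single libraries of wild-type (WT, orange) and knockout (KO, purple) forewings (FW) and hindwings (HW), with lines joining equal library numbers; the vertical scale differs between panels. The hindwing is lower for DN25778_c0 and DN32573_c0 and higher for DN41350_c3 in all 4 pairs. By contrast, DN37411_c1 is lower in wild-type hindwings (-1.10 and -2.40) and higher in knockout hindwings (0.34 and 0.32).

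The 4 clusters with the largest differences shared by both numbers had means of 5.62 to 9.4 FPKM over the wild-type libraries. The median of all tested clusters was 5.11 FPKM. TRINITY_DN44777_c9 was listed at 0 in both forewings and had 26.1 FPKM in hindwing 1 and 11.4 FPKM in hindwing 2. TRINITY_DN47122_c0 was likewise listed at 0 in both forewings and had 11.9 and 10.6 FPKM in hindwings 1 and 2. Clusters with the reverse pattern, listed at 0 in each hindwing, were TRINITY_DN44987_c1, with 13.6 and 18.8 FPKM in forewings 1 and 2, and TRINITY_DN32872_c0, with 16.3 and 10.4 FPKM. None of the 4 was called (limma, adjusted p = 1 each, unadjusted p from 0.00159 to 0.003). The fit of all 8 libraries with the estimated correlation called 8 clusters, each at an adjusted p of 0.0422 (limma), and these are named as its calls, after their values were seen. TRINITY_DN47122_c0 and TRINITY_DN44987_c1 were among them. For 7 of the 8, 1 wild-type wing was listed at 0 in both libraries, so that wing had no spread. How far the calls depend on this was not tested.

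None of the 4 clusters with the largest shared differences kept a difference of this size between the knockout wings. The 4 were picked for extreme wild-type differences, and knockout values had no part in the choice. The 2 genotypes are therefore not compared on equal terms here. TRINITY_DN44777_c9 had 5.14 and 25.6 FPKM in the mutant forewings against 4.97 and 29.4 FPKM in the mutant hindwings. TRINITY_DN47122_c0 was above 0 in both mutant forewings, with 16.1 and 4.73 FPKM, and had 7.71 and 2.72 FPKM in the mutant hindwings. The 2 clusters listed at 0 in wild-type hindwings were at 0 to 3.59 FPKM in all knockout wings.

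**Figure D5:**
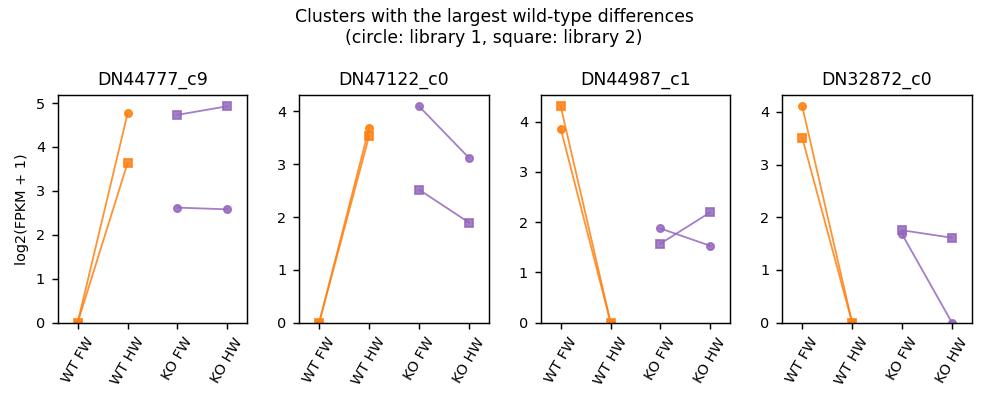
Points are log2(FPKM + 1) in single libraries, drawn as for the abundant clusters, for the 2 clusters with the largest shared excess in wild-type hindwings and the 2 with the largest in wild-type forewings. The wild-type lines run to or from 0, and the knockout lines are flatter. The clusters were picked by their wild-type differences alone.

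The other 6 calls of that fit had means of 3.96 to 17.8 FPKM. TRINITY_DN48415_c1 was the one cluster of the 8 above 0 in every wild-type library, with 6.07 and 3.66 FPKM in forewings 1 and 2 and 37.8 and 23.6 FPKM in hindwings 1 and 2 (log2 difference 2.43, SE 0.24). The 4 knockout wings were at 17.3 to 26.3 FPKM, above both wild-type forewings, and knockout hindwing 1 exceeded wild-type hindwing 2; they had wing differences of 0.17 and 0.21. Listed at 0 in both wild-type forewings were TRINITY_DN56397_c0, with 13.3 and 8.69 FPKM in hindwings 1 and 2, and TRINITY_DN50268_c18, with 9.41 and 10.2 FPKM. Neither was at 0 in the mutant forewings, where the first had 39.9 and 30.7 FPKM and the second 17.2 and 13.7 FPKM. In mutant hindwings the first had 52.0 and 29.8 FPKM, and the second was lower than in the mutant forewings, with 6.44 and 1.97 FPKM.

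Listed at 0 in both wild-type hindwings were TRINITY_DN46704_c7, with 12.1 and 10.1 FPKM in forewings 1 and 2, TRINITY_DN35419_c0, with 11.97 and 9.99 FPKM, and TRINITY_DN49699_c2, with 7.05 and 8.80 FPKM. Knockout wings had 1.09 to 4.06 FPKM of the first and 2.05 to 5.84 FPKM of the last, and TRINITY_DN35419_c0 was listed at 0 in all 4 of them.

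Several of these differences were not shared by the wider assembly component, the sum over all rows with the same DN number, and the values are hindwing minus forewing (log2). The component of TRINITY_DN44777_c9, with 6 tested clusters, differed by 0.51, that of TRINITY_DN47122_c0 (3 clusters) by 0.91 and that of TRINITY_DN46704_c7 (6 clusters) by -0.22. Those of TRINITY_DN50268_c18 (14 clusters) and TRINITY_DN49699_c2 (2 clusters) differed by 0.09 and 0.13, the latter with the sign reversed. The other 5, TRINITY_DN44987_c1, TRINITY_DN32872_c0, TRINITY_DN35419_c0, TRINITY_DN48415_c1 and TRINITY_DN56397_c0, are the only tested clusters of their components, whose sums differed by -3.84, -3.81, -3.58, 2.43 and 3.56. Among the 5 abundant clusters the component sums differed by 1.68 for TRINITY_DN41350_c3 and -1.46 for TRINITY_DN37411_c1, and TRINITY_DN25778_c0, TRINITY_DN32573_c0 and TRINITY_DN34290_c0 are alone in their components.

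For the 3 most abundant clusters the wings of a number lay within 0.36 (log2) of each other. TRINITY_DN52013_c8 had 170593 and 237581 FPKM in forewings 1 and 2 and 171269 and 185346 FPKM in hindwings 1 and 2, between 14.3% and 21.0% of all FPKM of a library. TRINITY_DN11466_c0 had 106480 and 103241 FPKM in forewings 1 and 2 and 92046 and 83754 FPKM in hindwings 1 and 2, differences of -0.21 and -0.30 (log2, hindwing minus forewing). TRINITY_DN49139_c22, a sum of 18 rows, had 41988 and 39150 FPKM in the libraries numbered 1 and 101400 and 123238 FPKM in those numbered 2 (forewing first). It differed by 1.27 and 1.65 (log2) between numbers and by -0.10 and 0.28 between wings.

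Differences between library numbers were shared by the wings. In the forewing and the hindwing alike, 2160 clusters were at least 2-fold higher and 2713 at least 2-fold lower in number 2, and 473 were 2-fold apart in opposite directions. TRINITY_DN43325_c23 had 5926 FPKM in forewing 1 and 6564 FPKM in hindwing 1, and 3.97 and 1.98 FPKM in forewing 2 and hindwing 2. All 4 knockout libraries resembled number 1, at 4234 to 6399 FPKM. TRINITY_DN40637_c0 was higher in number 2, with 2.32 and 1.66 FPKM in the libraries numbered 1, 976 and 709 FPKM in those numbered 2, and 0.96 to 19.6 FPKM in the knockouts. The first belongs to an assembly component, DN43325, with 29 tested clusters. Of these, 14 were 2-fold lower and 3 were 2-fold higher in number 2 in both wings, and the component as a whole held 8.83% and 10.5% of the FPKM of tested clusters in forewing 1 and hindwing 1 against 5.81% and 6.33% in number 2.

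The knockout wings are a further set of libraries of the same wings that shares none with the wild-type comparison, though it shares the assembly. Whether the wing difference was unlike in the 2 genotypes was tested as an interaction. Of 16991 clusters 0 (0%) passed in limma, the smallest adjusted p was 1 after rounding, and 247 had an unadjusted p under 0.05 where 850 would be expected with no effect (872 when the library number within a genotype was a fixed block). Without the wild-type forewing numbered 2 there were 364 calls, 357 of them higher and 7 lower, and without the wild-type hindwing numbered 2 there were 429, with 17 higher and 412 lower. These fits set 1 library of number 1 against wings of both numbers, so wing and number cannot be told apart in them. Without both there were 1499 calls, 722 higher and 777 lower. In all of these fits the lone library of a wing is assumed to vary like the other groups. The fit without both has no wild-type spread left and rests on that of the knockouts. The median absolute difference between numbers was 0.40 (log2) in the knockouts, against 0.96 in the wild types. As a description across clusters, the mean wing difference of the wild types correlated with that of the knockouts at r = 0.04 over all clusters. The r was 0.15 for clusters of 20 to 100 FPKM and 0.30 for the 781 of at least 100 FPKM. Clusters were kept by their wild-type level alone, here and in the knockout counts below. A cluster at 0 in every knockout library thus enters with a knockout difference of 0. The effect of this on r and on the counts was not tested.

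Of the 334 clusters 2-fold higher in wild-type hindwings within both numbers, 8 were also 2-fold higher in knockout hindwings within both numbers and 3 were 2-fold lower, where 136 (0.8%) and 100 (0.589%) of all tested clusters were. Of the 256 that were lower, 4 were also lower and 11 were higher. Among the clusters of at least 20 FPKM, 3 were 2-fold apart the same way in all 4 pairs and 1 was apart the opposite way in the knockouts, and they are named here after their values were seen. Besides TRINITY_DN41350_c3, described above, the 3 were TRINITY_DN40084_c0 and TRINITY_DN45839_c3.

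TRINITY_DN40084_c0 had 61.8 and 5.90 FPKM in wild-type forewings against 19.1 and 0.155 FPKM in wild-type hindwings. Knockout forewings had 104 and 99.1 FPKM and knockout hindwings 43.6 and 40.3 FPKM. The hindwing was the lower wing in every pair, but the wild-type groups overlapped, since hindwing 1 exceeded forewing 2, and the group difference ran from -0.05 without hindwing 2 to -4.17 without hindwing 1. TRINITY_DN45839_c3 had 92.3 and 35.8 FPKM in wild-type forewing 1 and hindwing 1, and 1.72 and 0 FPKM in wild-type forewing 2 and hindwing 2. Its knockout values were 91.1 and 66.7 FPKM for forewings and 29.3 and 7.34 FPKM for hindwings. Its wild-type groups overlapped too, the sum over its DN component differed by 0.14 (log2) with the sign reversed, and neither cluster was called (limma, adjusted p = 1).

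TRINITY_DN29993_c0 was the cluster with the opposite order in the knockouts. Wild-type forewings had 54.4 and 15.1 FPKM and wild-type hindwings 6.93 and 4.004 FPKM. Both knockout forewings were listed at 0, and the knockout hindwings had 8.62 and 1.54 FPKM. Its interaction was 4.55 (log2, SE 1.18, limma unadjusted p = 0.00663, adjusted p = 1).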

How the data were processed

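Per the labels' protocols, poly(A) RNA of dissected wings was made into libraries with 15 PCR cycles and sequenced as paired 36 bp reads. The authors deposited FPKM values per assembly row and library. The submitters' processing notes name Bowtie2; for its version, the quantification program and scaling across libraries nothing is given in the sources used here. As FPKM is relative to the library total, a few very abundant transcripts shift all other values. Read numbers are unknown, and relative depth was taken from the ratio of low values (peaks of row-wise log2 ratios for rows under 0.6 FPKM), which fitted all 6 pairs of libraries within 0.02 (log2). Precision comes from replicates, which the labels do not tie to separate animals, so p-values measure the spread between these libraries.

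FPKM was summed over rows sharing DN and c number, and clusters with a mean of at least 1 over the 4 libraries were kept. The log2(sum + 1) was tested with limma 3.58.1 in R 4.3.3 (empirical Bayes moderation with trend, Benjamini-Hochberg adjustment over all clusters, two-sided). The fit was checked on simulated data without a library-number effect, which does not show how the test behaves in this design. Fold changes on this scale understate changes of low clusters. The interaction used all 8 J. coenia libraries. Named were the 2 clusters in each direction whose smaller within-number difference was largest among clusters with groups that do not overlap (none was called), the 3 most abundant, and the 1 in each direction with the largest shared difference between numbers; others are marked in the text as chosen after their values were seen. The comparison, the cluster rule and the tests were chosen with earlier results of these data known. The alternatives changed the pseudocount (0.1), the filter (none, or a 5 FPKM mean), the scaling (median of ratios, or quantiles), and the moderation (no trend); others took rows or whole DN components as features, used all 8 libraries or the library number as a block, or left out each library. The V. cardui table was not used here.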

Additional observations from a re-analysis of the deposited data

Results flagged for a closer look

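For 6 clusters named in the report, every wild-type pair of wings differed one way and every knockout pair the other. The pattern was not particular to them. Of the 334 clusters 2-fold higher in wild-type hindwings within both numbers, 63 were lower in both knockout pairs and 75 higher. Of the 256 that were 2-fold lower, 69 were higher in both knockout pairs and 63 lower. The share of all tested clusters that were higher or lower in both knockout pairs was not taken, so these counts have no background beside them. The interaction (knockout wing difference minus wild-type wing difference, log2) was -4.41 for TRINITY_DN47122_c0, 2.08 for TRINITY_DN37411_c1, 1.51 for TRINITY_DN40637_c0, 4.55 for TRINITY_DN29993_c0, 3.91 for TRINITY_DN49699_c2 and -5.23 for TRINITY_DN50268_c18. The test of this difference passed for none of them (limma, adjusted p = 1 each, unadjusted p = 0.00267, 0.125, 0.753, 0.00663, 0.000713 and 0.00029). TRINITY_DN29993_c0 was picked for this pattern, and TRINITY_DN47122_c0, TRINITY_DN37411_c1, TRINITY_DN49699_c2 and TRINITY_DN50268_c18 for their wild-type difference, which is part of the interaction. The interaction of TRINITY_DN37411_c1 ran from 0.92 to 3.25 without 1 library. As sums over the DN component, the interaction was -1.21 for TRINITY_DN47122_c0, 0.66 for TRINITY_DN49699_c2, -0.17 for TRINITY_DN50268_c18 and 1.65 for TRINITY_DN37411_c1. TRINITY_DN40637_c0 and TRINITY_DN29993_c0 are the only tested clusters of their components, and their values were unchanged.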

How the results depend on the processing

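The count of 0 called clusters between wild-type wings held under every alternative run but the block with an estimated correlation over all 8 libraries, which called 8. The library numbers are shared by the wings in the labels, and number 2 minus number 1 correlated at 0.63 between the wild-type wings and at 0.62 between the knockout wings. These are 2 values, and the labels do not say that a number marks an animal. As a fixed replicate block, the number gave 0 calls (limma, 963 at an unadjusted p under 0.05). Leaving out a library gave 0 calls each time (limma, 579 to 1081 at an unadjusted p under 0.05). The interaction had 0 calls under all alternatives except leaving out a library, which gave 0 to 429, and leaving out both wild types numbered 2, added after the data were seen, which gave 1499; as a replicate block, fixed or correlated, it gave 0 (872 and 935 at an unadjusted p under 0.05). The median difference was 0.029 (log2) without the filter, 0.0007 above a 5 FPKM mean, 0.0011 with quantile normalization and -0.0478 to 0.055 without 1 library. The 590 clusters 2-fold apart the same way became 974 with a pseudocount of 0.1, 190 above a 5 FPKM mean, 1133 rows and 359 DN components, against 861, 142, 1073 and 305 in opposite directions (counts added after the data were seen). The wing share of the sum of squares was 9.32% above that mean. TRINITY_DN49699_c2 reversed as a DN component (0.13), as did TRINITY_DN45839_c3 (0.14), which also reversed without forewing 1 (1.16) or hindwing 2 (1.21), with a range of -3.99 to 1.21 without 1 library. The interaction of TRINITY_DN40637_c0 reversed without forewing 2 (-2.59) or hindwing 1 (-2.52), with a range of -2.59 to 5.61. The cause of these shifts was not tested. FPKM gives no counts, so depth limits the low clusters by an unknown amount.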
